A study of Mus musculus with 2 samples.

Results

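The MHC class I antigen presentation set comprised 10 of the 27998 genes counted in each library, taken by their symbols and all found: the light chain gene B2m, the classical heavy chain genes H2-K1 and H2-D1, the peptide transporter genes Tap1 and Tap2, the loading factor gene Tapbp, the immunoproteasome subunit genes Psmb8, Psmb9 and Psmb10, and Nlrc5. Their transcripts were followed in 7 classes of islet leukocytes from female NOD/ShiLtJ mice, an inbred strain that develops autoimmune diabetes without treatment. Cells sorted for CD45.1, the form of the pan-leukocyte marker CD45 that this strain carries, were made into 1 droplet library from mice 12 weeks old and 1 from mice 7 weeks old (10x Genomics, 3' chemistry). No genotype or treatment other than age separates the libraries, and the number of mice in each is not labelled. With 1 library per age no test between ages is possible, and every value below compares these libraries. Every interval is a 95% interval for counting error only, which leaves out how cells, mice or libraries vary. Intervals that do not overlap therefore do not show a difference beyond the spread between cells.

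Class I molecules carry peptides of the cell's own proteins to the surface, where CD8 T cells read them. The proteasome cuts proteins into peptides, and in cells exposed to interferon the catalytic subunits encoded by Psmb8, Psmb9 and Psmb10 take the places of Psmb5, Psmb6 and Psmb7. The transporter made of TAP1 and TAP2 moves peptides into the endoplasmic reticulum, tapasin (Tapbp) holds the empty heavy chain at the transporter, and beta-2-microglobulin (B2m) completes the molecule. NLRC5 is the transactivator that drives class I genes together with the RFX factors bound at a conserved promoter module. In insulitis, class I on beta cells and on the leukocytes around them is part of what autoreactive CD8 T cells meet, and all nucleated cells carry some.

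After filtering, 2782 cells remained at 12 weeks (median of 4950 unique molecular identifiers, UMIs, the counted transcripts) and 1099 at 7 weeks (median 5643). Classes were gated on UMIs of their own marker genes. CD8 T cells (at least 2 of Cd8a and Cd8b1 and none of Cd4) numbered 482 at 12 weeks and 176 at 7 weeks, CD4 T cells (at least 1 of Cd4 and none of the Cd8 genes) 874 and 372, and B cells (at least 2 of Cd79a) 689 and 182. Cells with Ncr1, the gene of a natural killer receptor, numbered 76 and 95. Macrophages (at least 10 of the C1q genes) numbered 34 and 11, dendritic cells (at least 10 each of Cst3 and H2-Aa) 241 and 89, and plasmacytoid dendritic cells (pDC, at least 3 of Siglech) 53 and 29. The T and B gates held their defining markers, with Cd3d found in CD8 T cells at 95.9% (12 weeks) and 96.0% (7 weeks), and Ms4a1 in B cells at 95.6% and 89.6%. The myeloid gates were less clean: 88.2% of macrophages at 12 weeks and 90.9% at 7 weeks fell in another class too. In the dendritic gate were 28 of the 34 macrophages at 12 weeks and 10 of the 11 at 7 weeks. Also in another class were 46.5% and 46.1% of dendritic cells, and 58.5% and 48.3% of pDC. A UMI of a T or B cell gene (Cd3d, Cd3e, Cd3g, Cd79a or Ms4a1) was found in 62.2% of dendritic cells at 12 weeks and 68.5% at 7 weeks, and for Cd3e alone in 16.6% and 43.8%. In pDC such a UMI was found in 43.4% and 48.3% of cells, and for Cd3e alone in 9.43% and 31.0%. The dendritic gate does not mark conventional dendritic cells alone, and Zbtb46, which does, had a UMI in 27.4% and 36.0% of its cells. The Ncr1 gate is not natural killer cells alone, since Cd3e had a UMI in 48.7% of its cells at 12 weeks and 51.6% at 7 weeks.

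Of the 10 genes, 7 lie on chromosome 17 in the major histocompatibility complex of the mouse build GRCm38. Tapbp (chr17:33915899-33929292, plus strand) and H2-K1 (chr17:33996017-34000347, minus strand) lie before the transporter genes and H2-D1 (chr17:35262730-35267499, plus strand) after them. Psmb9 (chr17:34181987-34187764, minus strand), Tap1 (chr17:34187553-34197225), Psmb8 (chr17:34197721-34201454) and Tap2 (chr17:34203527-34216321, the last 3 on the plus strand) follow each other within 34335 bases. Psmb9 and Tap1 are read away from each other and their annotated exons share 212 bases on opposite strands. Antisense genes that were counted too share 682 exon bases with Tapbp (Gm19412) and 518 with Tap2 (Gm15821), and how the counting used strand is not given in the sources used here. B2m lies at chr2:122147686-122153083 (plus strand), Psmb10 at chr8:105935735-105938444 (minus strand) and Nlrc5 at chr8:94434356-94527272 (plus strand). NOD mice carry the g7 haplotype, whose K molecule is of another allele than that of the C57BL/6 reference to which mm10 belongs, so H2-K1 reads were matched to a different allele of the gene. Near-identical class I genes can also exchange reads. Of the 451 windows of 50 bases in the last 500 bases of the transcript, H2-K1 shared 2 with H2-D1, and H2-D1 shared 43 with 68 genes, led by Adsl and Kcnk4 with 22 each. The other 8 members shared none, so read assignment is least certain for H2-K1 and H2-D1.

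Promoters were examined because these genes are known to share a promoter module. RefSeq's table for GRCm38.p6 held 8 of the 10, without Tap2 and Nlrc5. Each start used here is that of RefSeq, which can differ from the GENCODE gene positions given above. The windows of H2-D1, Tapbp, Psmb8 and Psmb9 lie wholly inside those positions, so their matches are upstream of the RefSeq start only. The 250 bases before the start are printed for B2m, H2-K1 and H2-D1, the genes of the surface molecule, and for Tap1, which shares its promoter region with Psmb9, 5' to 3', with capitals at matches of the X2 box TGACG, the Y box ATTGG, the interferon response element (GAAA, any 2 bases, GAAA) and the NF-kB consensus, each searched on both strands; the NF-kB match in B2m overlaps no other motif, and those of H2-K1 and H2-D1 are each a pair of matches shifted by 1 base.
B2m promoter, chr2:122147437-122147686, plus strand: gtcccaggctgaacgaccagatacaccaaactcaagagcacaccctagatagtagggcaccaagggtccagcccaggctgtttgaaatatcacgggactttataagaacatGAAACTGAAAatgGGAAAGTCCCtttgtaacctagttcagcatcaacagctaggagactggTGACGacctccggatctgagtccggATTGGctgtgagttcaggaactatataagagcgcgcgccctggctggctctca
H2-K1 promoter, chr17:34000348-34000597, minus strand: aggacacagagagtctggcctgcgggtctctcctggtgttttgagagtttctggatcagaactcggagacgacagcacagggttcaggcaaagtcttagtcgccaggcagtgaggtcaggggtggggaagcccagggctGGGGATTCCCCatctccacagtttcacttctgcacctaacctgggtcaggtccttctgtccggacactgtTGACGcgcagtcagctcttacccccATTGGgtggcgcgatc
H2-D1 promoter, chr17:35262844-35263093, plus strand: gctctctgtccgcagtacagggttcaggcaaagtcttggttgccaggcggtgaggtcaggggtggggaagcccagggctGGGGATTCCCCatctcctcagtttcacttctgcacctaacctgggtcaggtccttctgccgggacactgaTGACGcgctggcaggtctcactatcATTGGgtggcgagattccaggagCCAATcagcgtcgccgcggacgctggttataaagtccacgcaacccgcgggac
Tap1 promoter, chr17:34187306-34187555, plus strand: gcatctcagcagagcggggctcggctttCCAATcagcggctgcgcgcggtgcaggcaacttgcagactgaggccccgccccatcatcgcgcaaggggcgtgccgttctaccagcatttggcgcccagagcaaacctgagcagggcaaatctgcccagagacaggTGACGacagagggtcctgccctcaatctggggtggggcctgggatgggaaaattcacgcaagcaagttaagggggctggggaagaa
The X2 box, where CREB family factors are known to bind, was found in 5 of 8 member promoters and in 17.8% of the 32851 promoters of the table. The Y box, known for NF-Y, was found in 6 of 8 members and in 33.8% of all. In B2m, H2-K1 and H2-D1 an X2 box and a Y box stood in the same order with 20 bases between them, a layout found in 30 promoters, or 0.0913% of all, among them that of H2-M3, another class I heavy chain gene; this spacing was looked for after the sequences had been seen. An NF-kB match was found in the same 3 genes and in 3.90% of all promoters. The exact string of the interferon response element was found in B2m alone among the members (2.98% of all promoters). That of the gamma activated site, TTCNNNGAA, was found in Psmb8 alone (7.02% of all). Looser forms, with another base or spacing, were not searched. A promoter without a match may therefore still hold such an element. The H2-K1 and H2-D1 windows, laid over each other at their X2 boxes, were identical at 166 of 190 bases (87.4%). In the Tap1 window the X2 and Y matches are the same genomic bases as those of Psmb9, whose window overlaps it from the other strand. These are matches of letters, not measured binding.

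The 10 genes together made up 1.91% of macrophage UMIs at 12 weeks and 1.52% at 7 weeks, 1.70% and 1.38% in dendritic cells, 1.31% and 1.15% in CD4 T cells, and 1.03% and 0.807% in B cells, the lowest class at both ages. B2m was the largest member in each class. Its level, in UMIs per 1000000 UMIs of the class (CPM), was 8963 (8697 to 9234) in macrophages at 12 weeks and 6890 (6443 to 7360) at 7 weeks, and 8047 and 6388 in dendritic cells. It was 6387 and 5546 in pDC, 5887 and 5463 in Ncr1 cells, 5872 and 5112 in CD4 T cells, 5386 and 4631 in CD8 T cells and 4483 and 3489 in B cells. By the full total, this order of the 7 classes was the same in both libraries. Only Ncr1 and CD4 T at 12 weeks, and macrophage with dendritic and pDC with Ncr1 at 7 weeks, had overlapping intervals as neighbours. The highest class exceeded the lowest 2.0-fold at 12 weeks and 1.97-fold at 7 weeks. The top and the middle of this order rest on the total that divides the UMIs. With ribosomal, mitochondrial, haemoglobin, acinar and endocrine genes left out of the total, B2m was set against all other cells of the library. At 12 weeks it was then 1.06 in CD4 T, 1.01 in Ncr1 and 0.968 in pDC. At 7 weeks it was 1.06, 1.12 and 1.03, so pDC came below both. Dendritic cells were then at 1.32 at 12 weeks and 1.23 at 7 weeks. Macrophages were at 1.31 and 1.21, so they no longer stood above dendritic cells.

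**Figure D1:**
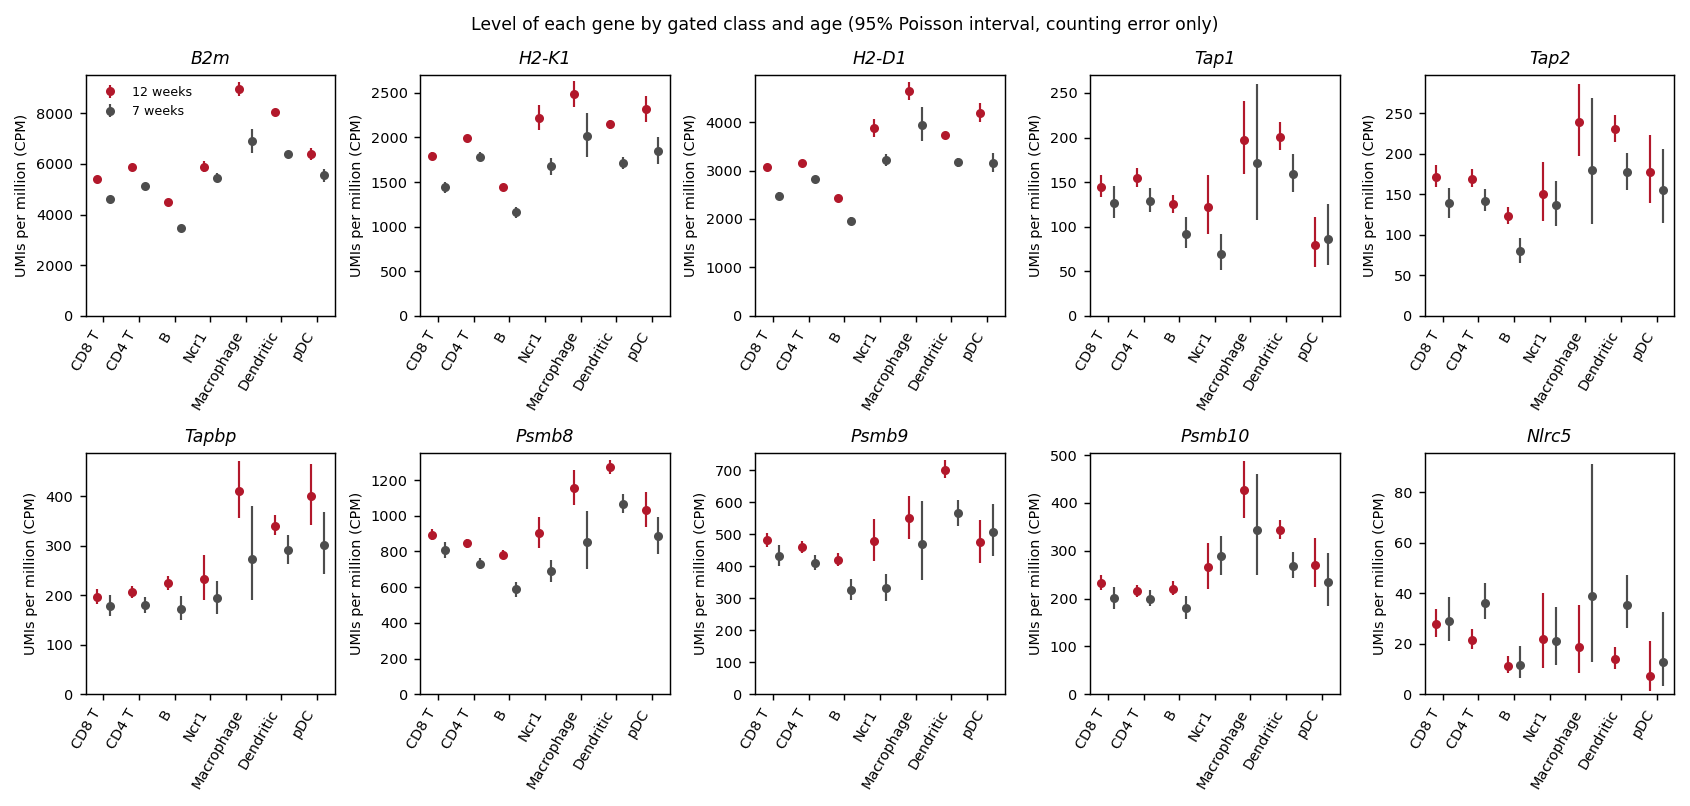
Level of each of the 10 genes (CPM, linear axis from 0) in 7 gated classes, 12 weeks in red on the left of each pair and 7 weeks in grey, with 95% Poisson intervals. For B2m, H2-K1, H2-D1 and Psmb8 the 12 week value lies above the 7 week value in all 7 classes, and B cells are lowest for most genes. Nlrc5 has another order at 12 weeks, with values of 13.9 at 12 weeks and 35.5 at 7 weeks in dendritic cells.

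By the full total, both heavy chain genes followed the B2m order at its ends. H2-K1 stood highest in macrophages, at 2483 CPM at 12 weeks and 2015 at 7 weeks, and lowest in B cells, at 1440 and 1161. H2-D1 stood at 4636 and 3945 CPM in macrophages and at 2443 and 1968 in B cells. Between these ends the order differed from that of B2m: at 12 weeks pDC (H2-K1 2318 CPM) and Ncr1 cells (2221) stood at or above dendritic cells (2148), with overlapping intervals. H2-K1 made up 38.8% of the UMIs of the pair in CD4 T cells at both ages, 36.9% at 12 weeks and 36.7% at 7 weeks in CD8 T cells, and 34.9% and 33.8% in macrophages.

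The transporter genes did not share an order. Tap1 was highest in dendritic cells (201 CPM, 186 to 217) and macrophages (197, 159.6 to 241) at 12 weeks, against 159 and 172 at 7 weeks. It was lowest in pDC at 12 weeks (79.2 CPM from 33 UMIs) and in Ncr1 cells at 7 weeks (69.9 CPM from 50 UMIs). Tap2 in pDC, in contrast, stood at 178 CPM at 12 weeks and 156 at 7 weeks, behind macrophages and dendritic cells. Tap1 made up 30.8% (22.3 to 40.5) of Tap1 and Tap2 UMIs in pDC at 12 weeks and 35.5% (24.9 to 47.3) at 7 weeks, against 47.8% and 47.6% in CD4 T cells and 46.6% and 47.3% in dendritic cells. The interval of pDC lay below that of CD4 T cells at 12 weeks and overlapped it at 7 weeks. Ncr1 cells had a share of 44.8% at 12 weeks and 33.8% (26.2 to 42.0) at 7 weeks. Tapbp was high in pDC too, at 401 CPM at 12 weeks and 302 at 7 weeks, beside 411 and 273 in macrophages and 341 and 291 in dendritic cells. The other classes lay between 197 and 233 CPM at 12 weeks and between 173 and 194 at 7 weeks.

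Among the immunoproteasome genes, Psmb8 and Psmb9 were highest in dendritic cells and Psmb10 in macrophages, at both ages. The highest class overlapped the next in interval for Psmb8 at 12 weeks (macrophages), Psmb9 at 7 weeks (pDC) and Psmb10 at 7 weeks (Ncr1 cells). Psmb8 reached 1274 CPM (1236 to 1314) at 12 weeks and 1068 (1013 to 1124) at 7 weeks in dendritic cells, and 782 and 587 in B cells. Psmb9 reached 703 and 567 CPM in dendritic cells and 421 and 327 in B cells. Psmb10 stood at 426 CPM at 12 weeks and 344 at 7 weeks in macrophages, and at 266 and 288 in Ncr1 cells, against 216 and 199.6 in CD4 T cells.

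To see how far a subunit replaces its constitutive counterpart between classes, each pair was expressed as a share of its summed UMIs. The share is an index, since the genes of a pair differ in length and capture. Psmb8 made up 85.3% (84.2 to 86.3) of Psmb8 and Psmb5 UMIs in dendritic cells at 12 weeks and 85.4% (83.6 to 87.0) at 7 weeks, against 80.6% and 80.8% in CD8 T cells and 82.0% and 79.2% in B cells. Psmb9 made up 73.8% and 71.1% of Psmb9 and Psmb6 in dendritic cells, against 67.2% and 64.8% in CD8 T cells. For Psmb10 over Psmb7 the order was another: 66.8% at 12 weeks and 67.7% at 7 weeks in macrophages, 62.9% and 65.8% in Ncr1 cells, 59.1% and 56.3% in dendritic cells, and 53.8% and 51.8% in CD8 T cells. For each of these 3 pairs the intervals of both ages overlapped in every class.

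**Figure D2:**
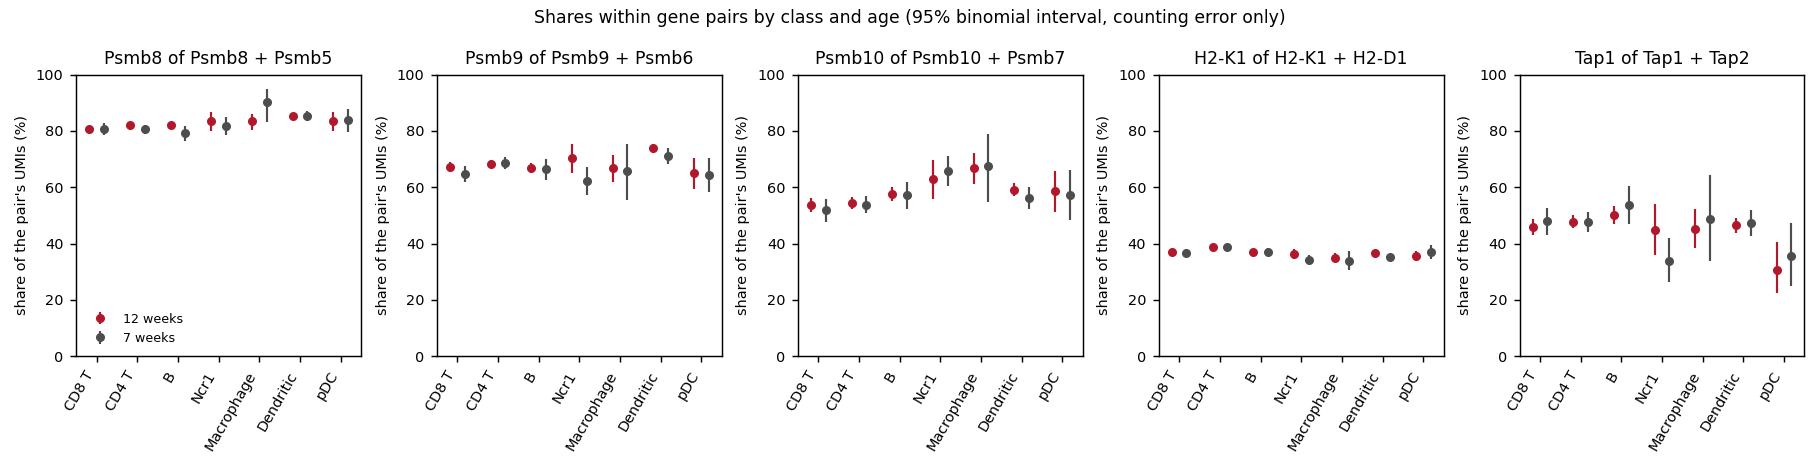
Share of each gene pair's UMIs held by the first gene (percent, axis from 0 to 100) by class, 12 weeks in red on the left of each pair and 7 weeks in grey, with 95% binomial intervals. The Psmb8 share is near 80% or above in every class, and the Tap1 share in pDC lies at 30.8% at 12 weeks and 35.5% at 7 weeks, below that of CD4 T cells.

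Nlrc5 was sparse, with 398 UMIs in all cells at 12 weeks and 236 at 7 weeks. At 12 weeks it was highest in CD8 T cells (27.8 CPM, 22.7 to 33.8), followed by Ncr1 cells (21.8) and CD4 T cells (21.6), and lower in dendritic cells (13.9), B cells (11.3) and pDC (7.20, from 3 UMIs). At 7 weeks macrophages stood at 39.1 CPM from 5 UMIs, CD4 T cells at 36.3 CPM (29.7 to 43.9), dendritic cells at 35.5 (26.2 to 47.1) and CD8 T cells at 29.0, against 11.7 in B cells. All neighbours in these orders had overlapping intervals. At 12 weeks Nlrc5 did not follow the order of the genes it is known to activate. Dendritic cells, among the highest for most other members, then had less Nlrc5 (10.1 to 18.6, from 45 UMIs) than CD8 T cells, without overlap of intervals. By the full total, macrophages were highest and B cells lowest at 7 weeks, as for B2m. The dendritic and CD8 T intervals overlapped at that age.

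Set against all other cells of the same library, 7 of 10 members reached 1.5-fold in dendritic cells at 12 weeks and 3 of 10 at 7 weeks, where 19.8% and 17.0% of all genes with at least 50 UMIs did. Tapbp (1.70 at 12 weeks and 1.68 at 7 weeks), Psmb9 (1.66 and 1.53) and Psmb8 (1.57 and 1.54) did so at both ages. In macrophages 4 of 10 did so at 12 weeks (background 17.5%) and 1 of 10 at 7 weeks (19.1%), Psmb10 at both ages (1.82 and 1.61). These counts rest on the total that divides the UMIs, because ribosomal protein genes took 22.9% of dendritic UMIs at 12 weeks and 26.1% at 7 weeks but 32.8% and 32.3% in CD4 T cells. With ribosomal, mitochondrial, haemoglobin, acinar and endocrine genes left out of the total, 0 of 10 reached 1.5-fold in dendritic cells at either age, though 9 of 10 stayed above 1 at both, with Tapbp at 1.44 and 1.48. In macrophages 1 of 10 at 12 weeks and 0 of 10 at 7 weeks then reached it. The shorter total also turned some directions. In pDC at 12 weeks 8 of 10 members were above 1 by the full total and 3 of 10 by the shorter one, and at 7 weeks 8 of 10 and 7 of 10. Psmb9 in macrophages was 1.17 at both ages by the full total but 0.956 and 0.993 by the shorter one, H2-K1 in dendritic cells at 7 weeks was 1.11 and then 0.979, and B2m in pDC at 12 weeks was 1.13 and then 0.968. B cells held less than the other cells for 10 of 10 members at 7 weeks by either total, and at 12 weeks for all but Tapbp, at 1.0 by the full total and 1.05 by the shorter one. At or below 0.67 in B cells were Nlrc5 at 12 weeks (0.477) and Nlrc5 and Tap2 at 7 weeks (0.386 and 0.540), where 26.7% and 25.8% of all genes were. In pDC, Tapbp reached 1.82 at 12 weeks and 1.61 at 7 weeks (background 24.7% and 22.1%), and by the shorter total it reached 1.5 at 12 weeks only, while Tap1 stood at 0.542 (background 31.2%) and 0.698. In CD8 T cells 0 of 10 reached 1.5 at either age (background 6.99% and 8.51%), in Ncr1 cells 0 of 10 (13.8% and 8.73%), and in CD4 T cells 0 of 10 at 12 weeks (7.76%) and Nlrc5 alone at 7 weeks (8.05%). At or below 0.67 were 0 of 10 in CD4 T cells at both ages (11.7% and 9.68%).

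Between ages, 9 of the 10 genes were higher at 12 weeks in all cells pooled, by a CPM ratio of 1.11 (Psmb10) to 1.2 (Tap2), and Nlrc5 was lower at 0.758 (0.644 to 0.894). The direction was the same within lymphocytes. In CD8 T cells 9 of 10 members had a ratio above 1 (54.2% of all genes) and a median log2 ratio of 0.21, where all genes had 0.03. CD4 T cells had 9 of 10 above 1 (50.2% of all genes) with a median of 0.18 against 0.00 for all genes, and in B cells 9 of 10 (55.5%) with 0.36 against 0.05. The intervals lay above 1 for 7, 8 and 9 members in CD8 T, CD4 T and B cells, where 10.5%, 10.5% and 10.3% of all genes did; among genes with at least 500 UMIs, whose counts are nearer those of most members, the shares were 25.3%, 20.6% and 28.1%. The sizes were small. None of the 10 was at least 25% higher in CD8 T cells (18.2% of all genes did) or CD4 T cells (14%), and 6 of 10 were in B cells (19.7%). At or below 0.8 were 0 of 10 in CD8 T cells (15.5%) and B cells (17.3%) and Nlrc5 alone in CD4 T cells (18.3%). Intervals lay below 1 for 0, 1 and 0 members in CD8 T, CD4 T and B cells (9.31%, 13.1% and 9.72%).

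**Figure D3:**
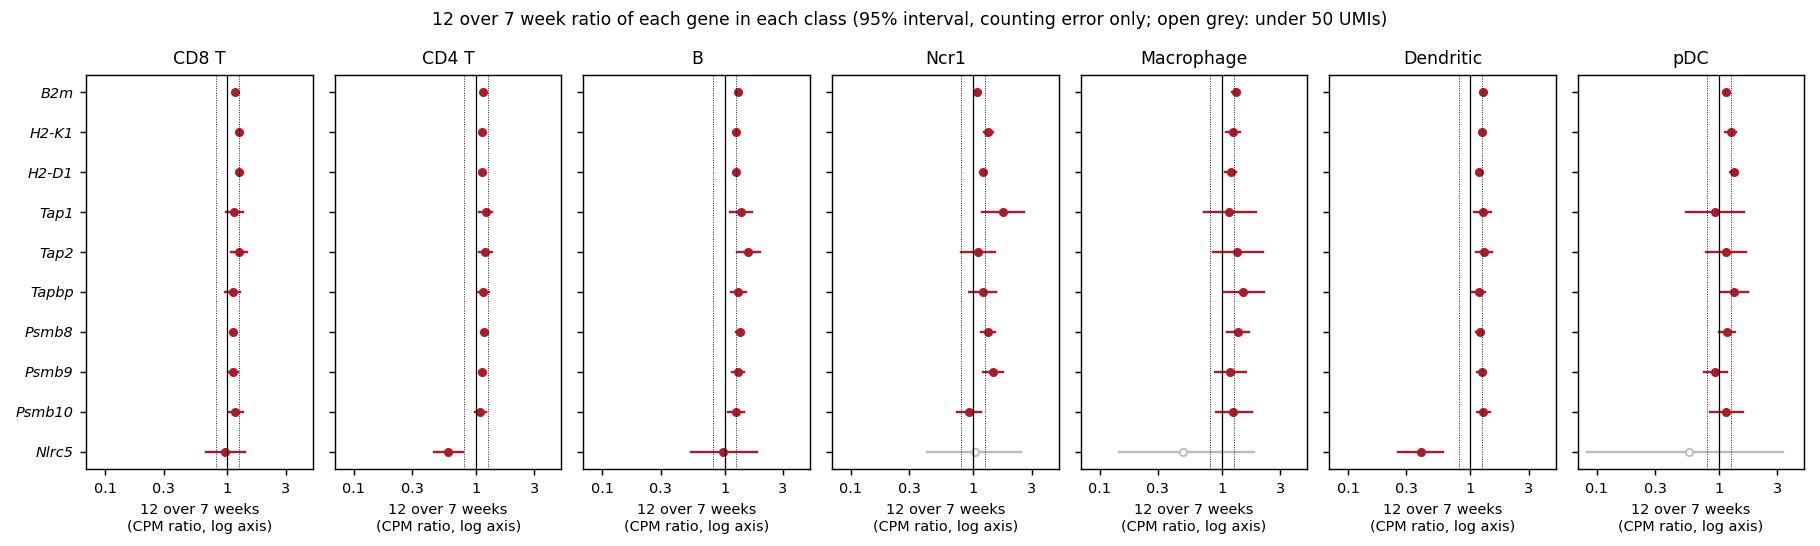
CPM at 12 weeks over CPM at 7 weeks for each gene (rows) in each class (panels) on a log axis, with 95% intervals, a solid line at 1 and dotted lines at 25% higher and at 0.8. Most points lie just to the right of 1, those of B cells furthest among the lymphocytes, and Nlrc5 lies to the left in CD4 T cells (0.595) and dendritic cells (0.392). Open grey points had under 50 UMIs.

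In B cells Tap2 differed most, at 124 CPM at 12 weeks and 79.7 at 7 weeks, a ratio of 1.56 (1.26 to 1.95) from 529 and 102 UMIs. Tap1 stood at 125 and 92.2 CPM (1.36, 1.11 to 1.67) and Psmb8 at 782 and 587 CPM (1.33, 1.23 to 1.44). B2m, Tapbp and Psmb9 each had a ratio of 1.29, and H2-K1 and H2-D1 each 1.24. Of the 6 past 25%, Tap2, Tapbp and Psmb8 stayed past it in the 11 of 14 alternative settings that change a B cell ratio at all. B2m and Psmb9 came to 1.18 and 1.19 with only cells in 1 class, and Tap1 to 1.01 with every cell thinned to 3000 UMIs. Of B2m UMIs in B cells, 11.2% at 12 weeks and 30% at 7 weeks came from 5 cells.

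CD8 T cells, the cells that read class I, had H2-K1 at 1797 CPM at 12 weeks and 1440 at 7 weeks (an interval of the ratio from 1.19 to 1.31, with the ratio just short of 25% higher) and H2-D1 at 3078 and 2480 (1.24, 1.2 to 1.29) where B2m was at 1.16 (1.13 to 1.19). Among CD4 T cells the 9 genes other than Nlrc5 lay between 1.08 (Psmb10, 0.979 to 1.2) and 1.2 (Tap1, 1.06 to 1.36). Transcripts of acinar cells, which secrete digestive enzymes, were also more frequent at 12 weeks, at 2.37 per 10000 UMIs in CD4 T cells, 1.94 in CD8 T cells and 2.28 in B cells, against 0.245, 0.372 and 0.688 at 7 weeks. Their part in the ratios was not tested.

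In dendritic cells 9 of 10 members were above 1 (53.4% of all genes) and 5 of 10 at least 25% higher (21.6%), namely B2m, H2-K1, Tap1, Tap2 and Psmb10, each at about 1.3. Intervals lay above 1 for 9 of 10 (12.7% of all genes, and 29.8% of those with at least 500 UMIs). Each of the 5 past 25% was short of 25% in 3 to 6 of the 11 alternatives that change its ratio. Endocrine transcripts took 82.1 per 10000 UMIs of dendritic cells at 12 weeks and 0.681 at 7 weeks. Without the 4 cells over 1% of such or acinar or haemoglobin UMIs the B2m ratio was 1.22 in place of 1.26. In macrophages 9 of 9 members with at least 50 UMIs were above 1 (57.5%), 4 of them past 25% (33.2%), from 34 cells at 12 weeks and 11 at 7 weeks. Tapbp was the furthest there, at 1.5 (1.05 to 2.22). With the few cells in 1 class only (4 at 12 weeks and 1 at 7 weeks), B2m in macrophages turned to 0.915. In pDC 7 of 9 were above 1 (58.8%) and 3 past 25% (30.8%), led by H2-D1 at 1.33 (1.23 to 1.44). Of the 9 alternatives that change these ratios, 8 took H2-K1 below 25% (to 1.06 without cells that hold T or B cell genes), 6 took H2-D1 (to 1.12 after thinning) and 3 took Tapbp (to 1.17 with doubled limits), so none of the 3 held throughout. In the same cells Tap1 and Psmb9 were at 0.922 and 0.934 with intervals that included 1. In Ncr1 cells 8 of 9 were above 1 (54.6%) and 4 past 25% (19.7%): Tap1 at 1.74 (1.17 to 2.61), Psmb9 at 1.45, H2-K1 at 1.33 and Psmb8 at 1.31. Intervals lay above 1 for 6 of 9 (8.78% of all genes, and 24.4% of those with at least 500 UMIs) and below 1 for 0 of 9 (8.54%). Few cells carried these: 5 cells held 55.4% of Tap1 UMIs at 12 weeks and 28.0% at 7 weeks, and 46.4% and 30.8% of Psmb9 UMIs. Psmb9 in Ncr1 cells turned to 0.977 with only cells in 1 class, when 5 of 8 members were above 1, and Psmb8 came to 1.14 without cycling cells.

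Nlrc5 went the other way in 2 classes. In CD4 T cells it stood at 21.6 CPM at 12 weeks and 36.3 at 7 weeks, from 120 and 105 UMIs, a ratio of 0.595 (0.454 to 0.780) where 18.3% of all genes were at or below 0.8. Over the 11 alternatives that change it, it lay between 0.570 and 0.711. In dendritic cells it stood at 13.9 and 35.5 CPM, from 45 and 48 UMIs, a ratio of 0.392 (0.255 to 0.601; 19.5% of genes at or below 0.8). The T cell gene content of the dendritic gate also differed with age (Cd3e in 16.6% and 43.8% of cells). In its 91 and 28 cells without a T or B cell gene the Nlrc5 ratio was 0.631 (0.279 to 1.52), from 19 and 10 UMIs, which includes 1. In CD8 T cells (0.961, 0.672 to 1.39) and B cells (0.963, 0.530 to 1.85) the intervals included 1. Whether the difference in CD4 T cells exceeds that in CD8 T cells was not tested.

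To ask where in the lymphocyte classes the members were high, cells were thinned to 3000 UMIs and binned by their own UMIs of other genes, so that depth does not set the bin. The first bins used 9 interferon-inducible guanosine triphosphatases (GTPases) of the Gbp and Irg families, which act against intracellular microbes and are known targets of interferon gamma (10 were listed, 1 was not in the matrix). In CD4 T cells 249 cells at 12 weeks and 68 at 7 weeks had 3 or more such UMIs, and 282 and 143 had 0. The 9 members with at least 50 UMIs were all higher in cells with 3 or more at both ages (45.4% of all genes at 12 weeks and 46.7% at 7 weeks), with a median ratio of 1.39 and 1.49, and 4 of 9 reached 1.5 at either age (5.72% and 8.06% of genes). Tap1 stood at 2.07 (1.59 to 2.72) at 12 weeks and 1.53 (0.939 to 2.47) at 7 weeks, Tap2 at 1.92 and 1.81, Tapbp at 1.58 and 1.96 and Psmb10 at 1.51 and 1.98. B2m was at 1.39 and 1.33, H2-D1 at 1.23 and 1.19, and H2-K1 at 1.22 at 12 weeks (1.14 to 1.31), with an interval of 1.10 to 1.41 at 7 weeks. In these cells the point values of Tap1, Tap2 and Tapbp were above those of both heavy chain genes at both ages. The cells with 3 or more were no deeper before thinning, with a median of 4536 UMIs against 5138 at 12 weeks and 5624 against 6120 at 7 weeks. B cells showed 9 of 9 at 12 weeks (53.0%) and 7 of 7 at 7 weeks (50.8%), led by Tap1 at 2.08 (1.44 to 2.98) at 12 weeks and Tapbp at 1.68 and 2.14. Tap2 in B cells at 12 weeks was at 1.04 (0.688 to 1.53), below H2-K1 at 1.38 (1.24 to 1.53) and H2-D1 at 1.10. CD8 T cells showed 9 of 9 (38.7%) and 7 of 7 (43.6%), led by Tap1 at 1.89 at 12 weeks, and Psmb10 at 1.57 and 2.06. Nlrc5 had under 50 UMIs in each of these comparisons.

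**Figure D4:**
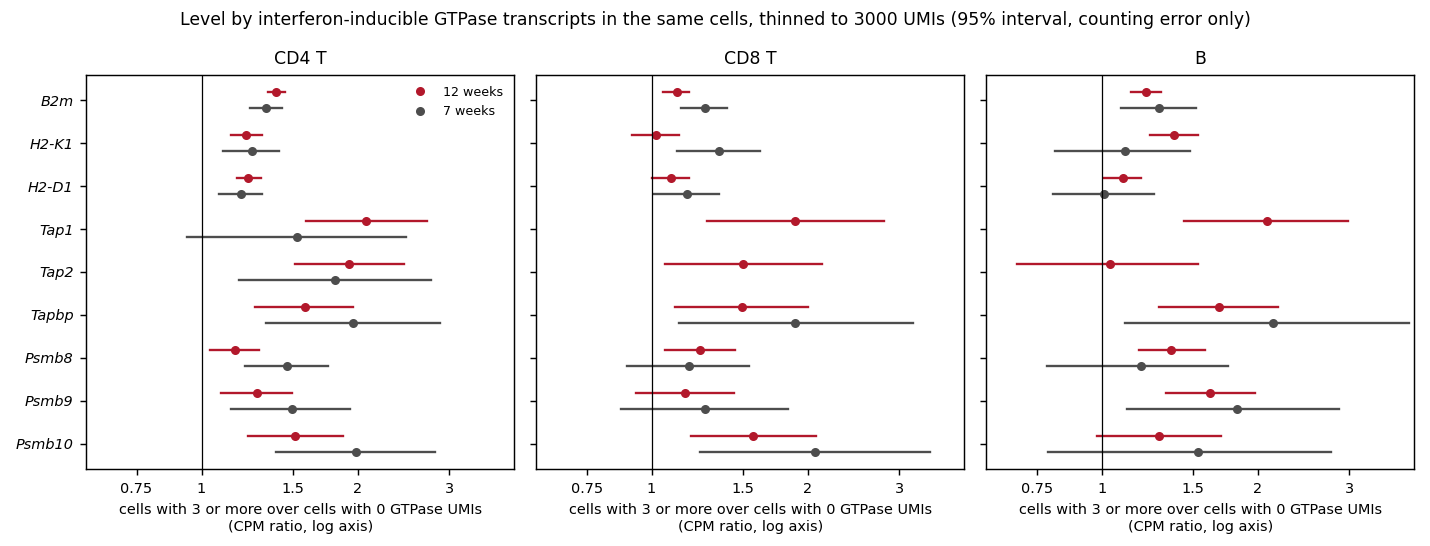
Level in cells with 3 or more GTPase UMIs over that in cells with 0, per gene in CD4 T, CD8 T and B cells on a log axis, 12 weeks in red above 7 weeks in grey, with 95% intervals. All points drawn lie to the right of 1, with Tap1 at 2.07 in CD4 T cells at 12 weeks, and genes with under 50 UMIs in a comparison are not drawn.

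Cells with 3 or more UMIs of interferon alpha/beta targets (Ifit, Isg15, Mx1 and others) were few. In CD4 T cells, 25 such cells at 12 weeks against 673 with 0 gave a median ratio of 1.51 with 9 of 9 above 1 (45.5% of all genes), and 18 against 285 at 7 weeks gave 1.27 with 8 of 9 (41.5%). Psmb10 was at 2.44 (1.70 to 3.41) at 12 weeks and 2.08 at 7 weeks, and Tap1 at 1.63 (0.935 to 2.65) and 2.51 (1.38 to 4.27). In CD8 T cells 14 cells at 12 weeks gave 9 of 9 (44.3%), with Tapbp at 2.27 (1.36 to 3.58).

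CD8 T cells were also binned by Ccl5, a chemokine of effector CD8 T cells. With 10 or more Ccl5 UMIs over 0 to 2, H2-D1 was at 1.37 (1.29 to 1.46) at 12 weeks and 1.37 (1.23 to 1.54) at 7 weeks, H2-K1 at 1.34 and 1.41, Psmb9 at 1.43 and 1.44 and B2m at 1.16 and 1.17, while Tapbp was at 0.861 and 0.903 with intervals that included 1. Above 1 were 7 of 9 members at both ages, beside 64.5% and 57.1% of all genes. Between cycling and other cells, Psmb9 was higher in cycling CD8 T cells at 1.61 (1.33 to 1.95) and 1.43 (1.02 to 1.97) and in cycling B cells at 1.72 (1.26 to 2.30) at 12 weeks, where B2m was at 0.972 and 0.809 in CD8 T cells and 0.860 in B cells. Cycling CD4 T cells had Psmb9 at 1.23 (0.996 to 1.5) and 1.21 (0.888 to 1.63), with intervals that included 1, and 3 of 10 members above 1 at 12 weeks (52.3% of all genes) and 5 of 9 at 7 weeks (50.6%). Above 1 were 6 of 10 members in CD8 T cells at 12 weeks (58.9% of all genes), 3 of 9 at 7 weeks (60.6%) and 4 of 9 in B cells at 12 weeks (54.2%). Cycling cells were deeper before thinning, with a median of 14056 UMIs against 5216 in CD8 T cells at 12 weeks.

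The ages were also compared within these bins. In CD4 T cells the median ratio of 12 to 7 weeks was 1.11 with 0 GTPase UMIs (9 of 9 above 1, beside 52.8% of all genes), 1.07 with 1 to 2 (7 of 9, beside 51.0%) and 1.08 with 3 or more (6 of 9, beside 50%). In CD8 T cells it was 1.13 (8 of 9, beside 50%), 1.21 (7 of 9, beside 61.3%) and 0.992 (4 of 9, beside 50.4%) over the same bins. B cells had 8 of 9 above 1 with 0 (57.7%), 9 of 9 with 1 to 2 (60.3%, median 1.37) and 6 of 8 with 3 or more (56.3%, median 1.17).

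The rest of the pathway was described from lists. Of the 11 other core proteasome subunits, 11 of 11 were above 1 in CD4 T (50.2% of all genes) and B cells (55.5%). In CD8 T cells 9 of 11 were (54.2%). Their median log2 ratios were 0.15, 0.30 and 0.13 in CD4 T, B and CD8 T cells. Psmb1, the most counted, was at 1.10 (1.04 to 1.17) in CD4 T cells and Psma6 at 1.31 (1.10 to 1.56) in B cells, but Psma7 in CD8 T cells was at 0.880 (0.804 to 0.965). The constitutive catalytic subunits had median log2 ratios of 0.07, 0.27 and 0.10 in CD4 T, B and CD8 T cells. Their intervals lay above 1 for 1, 2 and 0 of 3, beside 10.5%, 10.3% and 10.5% of all genes. The activator genes Psme1 and Psme2 were at 1.09 and 1.04 in CD4 T cells and 1.31 and 1.18 in B cells. Of the chaperones that fold the heavy chain, Calr was at 1.01 in CD4 T, 0.980 in CD8 T and 1.07 in B cells. Pdia3 was at 1.07 in CD4 T and 1.09 in CD8 T cells, with an interval of 1.12 to 1.41 in B cells. With 1 class per cell by priority, Calr in B cells came to 1.39 and Pdia3 to 1.62. In CD4 T and CD8 T cells Calr was then 0.997 and 0.976, and Pdia3 1.04 in both. Of the B cell UMIs at 7 weeks as gated, 5 cells held 41.8% for Calr and 38.9% for Pdia3.

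Other heavy chain genes differed from H2-K1 and H2-D1 and from each other. H2-T23, which encodes the Qa-1 molecule read by the NKG2A receptor, was higher at 12 weeks in CD4 T (1.21, 1.12 to 1.3), CD8 T (1.31, 1.18 to 1.46) and B cells (1.35, 1.21 to 1.51). H2-Q4 was lower, at 0.743 (0.674 to 0.819) in CD4 T and 0.702 (0.613 to 0.805) in CD8 T cells, and H2-Q7 was at 0.988 and 1.12. Counts of these Q genes are uncertain, as near-identical copies can trade reads. H2-M3 was at 1.61 (1.27 to 2.06) in B cells. H2-M2 in CD4 T cells, at 5.29, rests on few cells, since 5 cells held 86.3% of its UMIs at 12 weeks and 100% at 7 weeks. In all, 5 of 9 other heavy chain genes were above 1 in CD8 T cells (54.2% of all genes), 8 of 12 in CD4 T (50.2%) and 5 of 7 in B cells (55.5%).

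Among regulators, Irf1, an interferon-induced transcription factor, was at 1.01 (0.900 to 1.14) in CD4 T cells. Rfxap, which encodes a subunit of the RFX complex that recruits NLRC5 to class I promoters, was lower in CD4 T, CD8 T and B cells, at 0.427 (0.302 to 0.602) in CD4 T cells from 64 and 78 UMIs, 0.345 (0.218 to 0.544) in CD8 T cells from 37 and 46, and 0.283 (0.169 to 0.473) in B cells from 32 and 34. With 1 class per cell by priority these were 0.463, 0.322 and 0.406. Irf8 in CD8 T cells, at 2.19, came to 1.23 by that rule. Of the 13 regulators, 5 were above 1 in CD4 T cells (50.2% of all genes) and 8 in B cells (55.5%). In CD8 T cells 8 of 11 with at least 50 UMIs were (54.2%). The receptor gene Ifngr1 was at 1.62 (1.35 to 1.94) in CD8 T cells, 1.14 (1.01 to 1.28) in CD4 T cells and 0.924 (0.744 to 1.16) in B cells. The GTPases used for the bins were above 1 for 9 of 9 in CD4 T (50.2%), 7 of 7 in B (55.5%) and 6 of 8 in CD8 T cells (54.2%). Their median log2 ratios were 0.33, 0.84 and 0.33, led in B cells by Gbp2 at a ratio of 2.35 (1.63 to 3.49) from 258 and 33 UMIs.

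Likeness of pattern was measured by Pearson's r of log2(CPM + 1) over the 14 sums of class and age, which share libraries and cells, so r is a description. Among 7618 genes, H2-K1 and H2-D1 were each other's nearest gene (r = 0.96), and so were Psmb8 and Psmb9 (r = 0.95). B2m was nearest to Coro1b (0.97), Tap2 (0.96) and Rab5c (0.95), and Tap2 to B2m. Tap1 had Ms4a6d and Cfb (both 0.88) among its nearest genes and was less like Tap2 (0.60), Psmb9 (0.67) and B2m (0.56). Tapbp was nearest to Creg1, Cd300lf and H2-T23 (each 0.95). Psmb8 was followed by Psma7 and Pomp (both 0.94), Pomp being the assembly factor of the proteasome, and Psmb9 by Chp1 (0.90) and Pomp (0.89). Psmb10 was nearest to Cyba (0.94), Clta and Amdhd2 (both 0.92), and H2-K1 after H2-D1 to Arf1 (0.91) and Gpr108 (0.90), H2-D1 after H2-K1 to Lrpap1 (0.93) and B2m (0.92), and Tap2 after B2m to Ndufb8 and Lipa (both 0.92). Nlrc5 was nearest to Ywhah (0.89), Eva1b (0.88) and Ptp4a2 (0.87), and its r with the other members lay between -0.37 (Tapbp) and 0.46 (Tap1).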

How the data were processed

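CD45.1+ cells from islets of female NOD mice were profiled with 10x Genomics 3' chemistry, with 1 library at 12 weeks and 1 at 7 weeks. The authors deposited a matrix of whole-number UMI counts per gene and barcode for each library, not normalized. The submitters' processing notes name Cell Ranger 1.3.1 and the build mm10; the annotation is not given in the sources used here. There were 2812 barcodes with 19288252 UMIs at 12 weeks (at least 3031 per barcode) and 1113 with 8701184 at 7 weeks (at least 2587), and 2 barcodes occur in both.

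Barcodes with at least 200 genes and at most 10% mitochondrial UMIs were kept, which removed 8 at 12 weeks and 4 at 7 weeks. Scrublet in scanpy 1.11.5 scored doublets in each library. The automatic threshold removed 22 at 12 weeks. At 7 weeks it called 0.180%, under the limit of 0.5%, so the 10 highest scores were removed, at a rate of 0.8% per 1000 barcodes. Classes may overlap, so a cell past several gates counts in each. UMIs were summed per class and expressed as CPM of the class total. Sums carry exact Poisson, ratios exact conditional binomial and shares exact Clopper-Pearson 95% intervals. These intervals assume counting error only and were not tested against the spread between cells. Genes needed 50 UMIs over both sides of a comparison. No test was made.

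All 10 members are named in every class. From each pathway list the genes named are among the 2 with the most UMIs and the 2 whose interval lies furthest from 1 in CD4 T, CD8 T or B cells, and for each member the 3 genes of most similar pattern, among genes with at least 200 UMIs over the sums. Members, lists and comparisons were chosen with earlier results of these data known. Promoters are from RefSeq (GRCm38.p6), and gene positions from GENCODE on GRCm38. Python 3.11.15, numpy 2.4.6, scipy 1.17.1, pandas 2.3.3 and matplotlib 3.10.9 were used. Alternatives varied the doublet, mitochondrial and UMI filters, the gates, the total, the weights, the depth and cycling cells. Results that need some of the genes in these lists are not reported here.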

Additional observations from a re-analysis of the deposited data

How the results depend on the processing

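No paired analysis was possible because each age has 1 library, so no replicate could be left out either, and the spread between mice is unknown. Over 14 alternatives, 3 of them chosen after seeing the data (1 class per cell by priority, myeloid classes without cells that hold T or B cell genes, and cells over 1% endocrine, acinar or haemoglobin UMIs left out), 265 of 914 ratios of 12 to 7 weeks were identical to those reported, since settings such as the lower UMI minimums keep the same cells and total. Of the 649 that differed, 573 stayed within the interval of the reported ratio, 73 moved outside it and 3 turned, and 583 were above 1. The 3 that turned were Psmb9 in Ncr1 cells, at 0.977 both with only cells in 1 class and by priority, and B2m in macrophages, at 0.915 with only cells in 1 class. Of 24 ratios at least 25% higher or at most 0.8, 15 lost that call in at least 1 alternative.

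The count of members higher at 12 weeks came to 5 of 8 in Ncr1 cells with only cells in 1 class and by priority, in place of 8 of 9. In macrophages it came to 2 of 3 with only cells in 1 class and 5 of 5 after thinning, in place of 9 of 9.

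Counts of members 1.5-fold over the other cells moved more. At 12 weeks the CD8 T count of 0 became 1 with only cells in 1 class, without cycling cells, with equal weight per cell, after thinning and by priority. The CD4 T count of 1 at 7 weeks became 0 with only cells in 1 class, doubled limits, thinning and priority. The macrophage count of 4 at 12 weeks became 1 with the shorter total and 8 when centred on the median gene. Its count of 1 at 7 weeks became 5 with only cells in 1 class, 3 without cycling cells, 0 with the shorter total, 6 when centred, 3 with equal weight per cell, 2 after thinning and 3 without cells that hold T or B genes. The dendritic count of 7 at 12 weeks became 3 with only cells in 1 class, 0 with the shorter total, and 4 each with equal weight per cell, after thinning and without cells that hold T or B genes. Its count of 3 at 7 weeks became 5 with doubled limits, 0 with the shorter total and 5 when centred. The pDC count of 1 at 12 weeks became 2 without cells that hold T or B genes, and at 7 weeks 1 became 0 with only cells in 1 class, the shorter total and thinning, and 2 without such cells. The cause of these moves was not tested.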
